A study of Capra hircus with 20 samples.

Results

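Hypothalamic gene expression of female Jining grey goats was compared between M4 (120 days of age) and D1 (1 day of age). The members are the 10 libraries that carry these labels, 5 at D1 and 5 at M4, of the 20 libraries of the series, and the remaining 10 were taken at M2 (60 days) and M6 (180 days). The goats were healthy, were reared under the same feeding management and were slaughtered on the same day, and no goat received a treatment. Goats of unlike age killed on the same day were born on different dates. Age and date of birth therefore cannot be told apart here. Each library came from the hypothalamic tissue of 1 goat, was depleted of rRNA and kept the strand of the RNA. The measured value is FPKM, the fragments of a gene per kilobase of its exons and scaled to the mapped reads of its library.

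The hypothalamus controls hormone release, feeding, temperature and the onset of puberty. Neurons that make gonadotropin-releasing hormone (GnRH) drive the pituitary and gonads, and kisspeptin, neurokinin B and dynorphin neurons control them in turn. Goats are born with a hypothalamus whose neurons are largely in place, while glial cells still divide and myelin, which needs much cholesterol, is still being laid down around axons. The M4 vs. D1 comparison therefore spans the interval between the newborn brain and an age by which this early-maturing breed has passed through puberty.

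The table held 21071 genes, and 16771 of them reached 0.1 FPKM in 5 or more of the 20 libraries and were tested. The paper lists read numbers per library, but the values are FPKM without counts. The main fit did not use depth, so the spread between libraries sets the precision. FPKM summed to between 260199 and 355557 per library. At least 0.1 FPKM was reached by 16011 ± 98.8 genes at D1 and 15744 ± 95.9 at M4 (SD, n = 5 each), which differed by an exact permutation test (two-sided p = 0.00794, the smallest that 5 against 5 libraries can give, adjusted p = 0.0317 over 4 library measures). Across genes, on log2(FPKM + 0.1), the 10 pairs of D1 libraries had a median Pearson's r of 0.941. The median was 0.894 for the 10 M4 pairs and 0.907 for the 25 pairs of unlike age. Libraries of different ages were thus about as alike as libraries of the same age.

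Several libraries stood apart in the markers of brain regions, as the plot of summed FPKM by library shows. D1 replicate 4 had 976 FPKM summed over the 22 measured markers of cortex, striatum and thalamus, against 57.0 to 141 in the other D1 libraries. It was high in the striatal genes PPP1R1B and DRD1, with 226 and 151 FPKM. The same list summed to 221 FPKM in M4 replicate 1, which alone was high in the cortical genes SLC17A7 (68.0 FPKM) and NEUROD6 (23.7 FPKM), and to 413 FPKM in M4 replicate 2, which was high in the thalamic gene GBX2 (18.2 FPKM). These markers were singled out after their values were seen. The mature myelin genes summed to 1379.6 FPKM in D1 replicate 4, 753 FPKM in M4 replicate 1 and 1574 FPKM in M4 replicate 2, and to between 9893 and 18182 FPKM in the other 7 libraries.

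The tissue label was checked against 31 transcription factors of the hypothalamus, of which 26 passed the filter. Their summed FPKM ranged from 31.9 to 93.1 at D1 and from 29.4 to 55.7 at M4, so the groups overlapped. NKX2-1, which specifies the ventral hypothalamus, had 3.17, 0, 0.369, 1.63 and 0.0145 FPKM in D1 replicates 1 to 5 and 0.0296, 0, 0, 0.243 and 0.222 FPKM in M4 replicates 1 to 5. This defining marker was listed at 0 or was near 0 in most libraries of both ages. The part of the tissue that each library holds was not the same by these markers, and its part in the results below was not tested except by leaving libraries out.

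**Figure D1:**
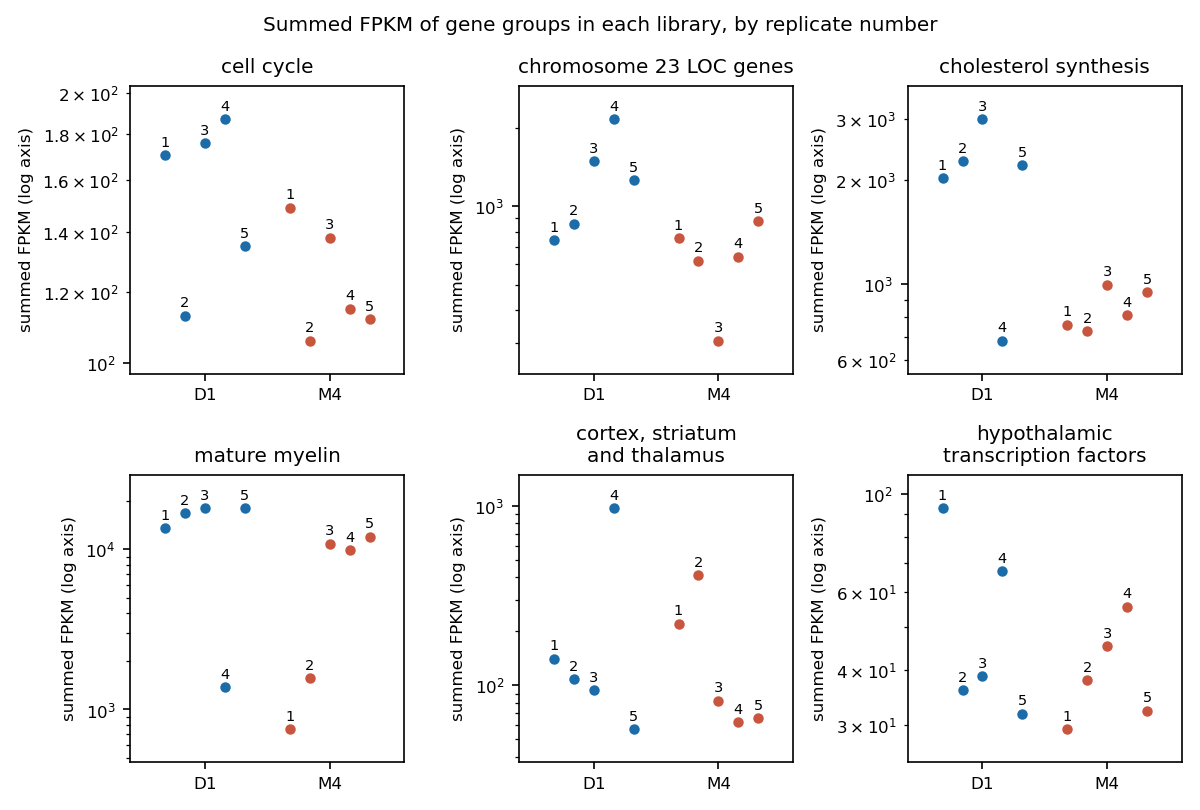
Summed FPKM of 6 gene groups (log axes) in each D1 and M4 library, each point a library marked with its replicate number. D1 replicate 4 and M4 replicates 1 and 2 lie far below the other 7 libraries in mature myelin genes and above them in markers of cortex, striatum and thalamus.

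By limma, 9 genes were differentially expressed (DEGs) in M4 vs. D1, that is, they had a Benjamini-Hochberg adjusted p under 0.05 and differed by 1 or more on the log2 scale. This is 0.0537% of the genes tested. All 9 fell from D1 to M4, and 0 rose. They were ALAS2 and HBBC of red blood cells, UBE2C of cell division, MVD of cholesterol synthesis, SRM of polyamine synthesis, the Ras association domain gene RASSF10, and the uncharacterized genes LOC106501755, LOC102178586 and LOC108637481. In each of the 9 the highest M4 library lay below the lowest D1 library. Over all genes tested, 255 were lower in every M4 library than in any D1 library (1.52%), and 68 were higher in every M4 library (0.405%).

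An unadjusted p under 0.05 was found for 1460 genes (8.71%), of which 1041 were lower at M4 (6.21%) and 419 were higher (2.5%). This split depended on scaling. It was 754 lower and 563 higher after quantile normalization, 805 lower and 592 higher after median-ratio scaling, and 731 lower and 673 higher with the mapping rate of each library as a covariate. The log2 fold change of all genes tested had a median of -0.0667, with 56.3% of the genes below 0. The calls rest on a spread estimated over all 20 libraries, and with the 10 libraries of D1 and M4 alone limma called 0 genes, with 1578 genes at an unadjusted p under 0.05. Leaving out D1 replicate 4 and M4 replicates 1 and 2 together, an alternative added after the values were seen, again gave 9 DEGs, all lower at M4, of which 4 were among the 9 above (ALAS2, MVD, LOC106501755 and LOC108637481).

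**Figure D2:**
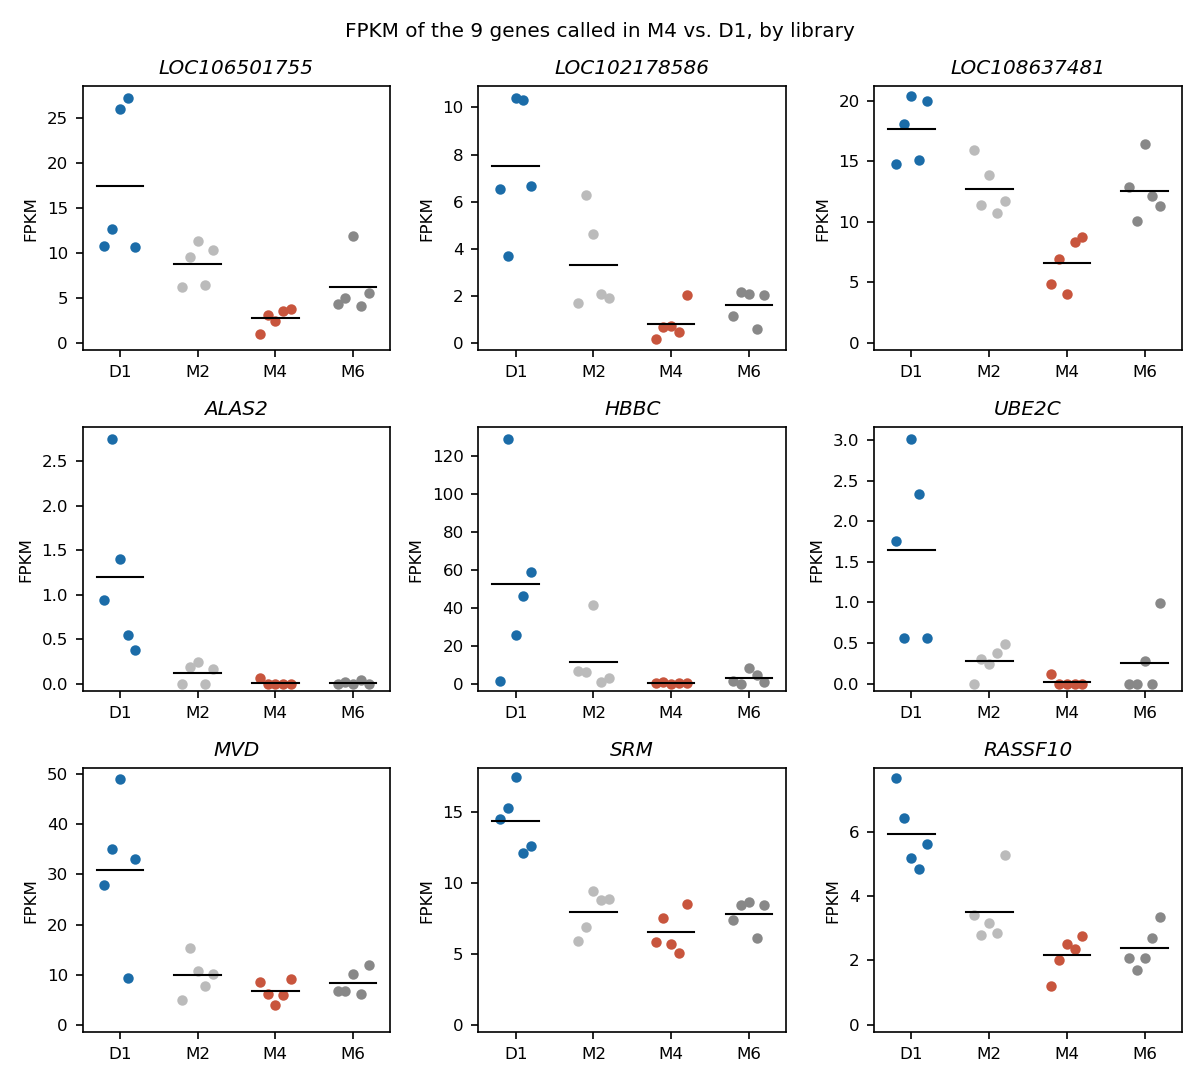
FPKM of the 9 genes called in M4 vs. D1, 1 point per library and a line at the mean of the 5 libraries of a stage, with M2 and M6 drawn in grey. In all 9 panels the M4 points lie below every D1 point, and for MVD and HBBC a single D1 library comes close to the M4 range.

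Of the 9 DEGs, 2 lie close together on chromosome 23 of the goat genome ARS1.2. LOC106501755, at chr23:18979800-18980735, had 10.8, 12.7, 26.1, 27.3 and 10.7 FPKM in D1 replicates 1 to 5 and 0.960, 3.05, 2.45, 3.58 and 3.81 FPKM in M4 replicates 1 to 5. D1 replicates 3 and 4 were the highest, and the M4 libraries were all below 4 FPKM. Its log2 fold change was -2.62 (SE 0.38, adjusted p = 0.00694 from limma). LOC102178586, at chr23:18943619-18944104, had 6.54, 3.68, 10.4, 10.3 and 6.68 FPKM at D1 and 0.140, 0.688, 0.725, 0.468 and 2.02 FPKM at M4. Again D1 replicates 3 and 4 were the highest, and M4 replicate 5 was the highest of its group. Its log2 fold change was -3.32 (SE 0.51, adjusted p = 0.00926 from limma).

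The genes around them were lower at M4 too. Between the named genes ZNF184 and ZNF165, 15 uncharacterized genes with a LOC name were tested, from 18942910 to 18994477, and all 15 had a log2 fold change below 0, with a median of -2.62. Other stretches of the same chromosome are also rich in short LOC genes. The stretch between ZNF322 and PRSS16 held 5 tested LOC genes with a median of -2.0, and the stretch between TRIM38 and BTN3A3 held 29 with a median of -1.04. In human the same named genes flank the large histone gene cluster. The annotation used here gives no product for the goat LOC genes, and they are not called histone genes.

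Of the 49 LOC genes tested in the 3 stretches, 48 had a fold change below 0, 34 were lower at an unadjusted p under 0.05 (69.4%, against 6.21% of all genes) and 0 were higher. In 11 of them the M4 libraries were all below the D1 libraries (22.4%, against 1.52% of all genes). The 2 DEGs both lie between ZNF184 and ZNF165. All 3 stretches were chosen after these values were seen, so the shares describe them and test nothing. Their summed FPKM was 742, 859, 1492, 2160.1 and 1264 at D1 and 754, 620.4, 306, 641 and 879.8 at M4. The D1 libraries were mostly higher, but D1 replicates 1 and 2 lay within the M4 range. Short genes of near-identical sequence can share or lose reads in mapping, so the values of single LOC genes are uncertain.

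The named genes beside and between the stretches had smaller differences. ZNF184 had 7.46 to 9.59 FPKM at D1 and 3.87 to 8.66 at M4, with a log2 fold change of -0.40 (SE 0.22). TRIM38 (-0.12, SE 0.36), HFE (-0.17, SE 0.39), ABT1 (-0.25, SE 0.21), ZNF322 (-0.07, SE 0.19) and ZNF391 (0.14, SE 0.31) were also not called. ZNF165 (-0.34, SE 0.37), PRSS16 (-0.32, SE 0.48) and BTN2A2 (0.12, SE 0.53) were not called either, and of the 49 LOC genes only 2 were. These named genes differed less than the median LOC gene of each stretch. Whether they share a smaller fall was not tested. Without D1 replicate 4, 26 of 48 LOC genes were lower at an unadjusted p under 0.05, and without the 3 libraries low in myelin genes 28 of 48 were.

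**Figure D3:**
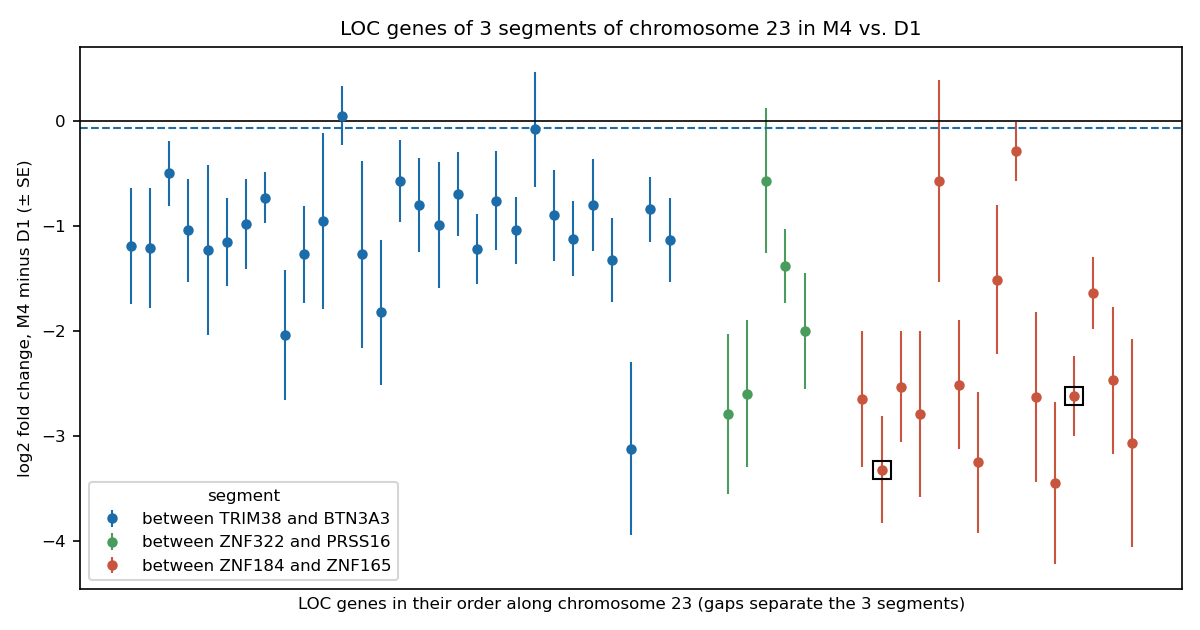
Log2 fold change in M4 vs. D1 with its standard error (limma) of the 49 tested LOC genes in 3 stretches of chromosome 23, in their order along the chromosome, with squares around the 2 DEGs and a dashed line at the median of all genes tested. Nearly all points lie below 0, and those between ZNF184 and ZNF165 lie lowest, with a median of -2.62.

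Of the cell cycle genes, 1 passed the DEG threshold, and it was lower at M4. UBE2C, the ubiquitin-conjugating enzyme that works with the anaphase-promoting complex, had 1.76, 0.564, 3.01, 2.33 and 0.562 FPKM in D1 replicates 1 to 5 and 0.119, 0, 0, 0 and 0 FPKM in M4 replicates 1 to 5. It was listed at 0 in 4 of 5 M4 libraries. The log2 fold change of -3.62 (SE 0.67, adjusted p = 0.0459 from limma) depends on the pseudocount at such values, and UBE2C was called in 2 of the 23 alternatives in which it was tested. TOP2A, the topoisomerase of dividing cells, had 5.85, 2.60, 7.70, 8.86 and 0.685 FPKM at D1 and 0.370, 0.445, 0.772, 0.512 and 0.711 FPKM at M4. D1 replicate 5 lay within the M4 range, and the adjusted p was 0.0889 from limma (log2 fold change -2.59, SE 0.56).

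Of 50 cell cycle genes tested, 1 was a DEG, 23 were lower at an unadjusted p under 0.05 (46.0%, against 6.21% of all genes) and 0 were higher. The median log2 fold change of the list was -0.82, against -0.0667 for all genes. Summed over the list, FPKM ranged from 113 to 187 at D1 and from 106 to 149 at M4, and D1 replicates 2 and 5 lay within the M4 range. In 8 genes the groups did not overlap (16%, against 1.52%), and these were UBE2C, DLGAP5, CCNB2, NDC80, ECT2, CDK1, ASPM and MKI67. DLGAP5, a spindle protein, had an adjusted p of 0.0718 by limma and a log2 fold change of -2.80 (SE 0.55). MKI67, the usual marker of proliferation, had 0.137 to 0.616 FPKM at D1 and 0.0246 to 0.0669 FPKM at M4, with a log2 fold change of -1.42 (SE 0.65, adjusted p = 0.562 from limma).

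D1 replicates 2 and 5 had the lowest levels of several of these genes among the newborn libraries, and D1 replicates 1, 3 and 4 the highest. Without D1 replicate 5, 4 cell cycle genes were DEGs, and with library quality weights 2 were. In every other alternative 0 were. Without D1 replicate 3 or 4, 13 or 14 were lower at an unadjusted p under 0.05, and without the 3 libraries low in myelin genes 8 of 49 were. The count thus rests in part on which libraries are kept. In bulk tissue, fewer dividing cells and less of these RNAs per cell cannot be told apart, and the same holds for every cell type below.

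Among genes of immature neurons, 0 were called. SOX11 had 0.0842 to 0.494 FPKM at D1 and 0.0268 to 0.847 at M4. DCX, the microtubule protein of migrating neurons, had 2.39 to 10.8 FPKM at D1 and 2.37 to 7.33 at M4. Both ranges overlapped, and the log2 fold changes were -0.12 (SE 0.52) and -0.06 (SE 0.48). Of 36 immature neuron genes tested, 5 were lower at an unadjusted p under 0.05 (13.9%, against 6.21% of all genes) and 0 were higher. The list had a median of -0.33, with 75% of its genes below 0 against 56.3% of all genes. The lowest p was that of VIM, an intermediate filament of radial glia and other immature cells, with 92.1 to 227 FPKM at D1 and 33.2 to 71.2 at M4. The groups did not overlap, and the adjusted p was 0.253 by limma (log2 fold change -1.17, SE 0.33). The chromatin genes of dividing and immature cells had a median of 0.05 over 18 genes, with 1 lower (5.56%, against 6.21%) and 0 higher.

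Genes of cholesterol synthesis were lower at M4 along much of the pathway, and 1 D1 library departed from the rest. MVD, which makes isopentenyl diphosphate from mevalonate diphosphate, had 27.8, 35.1, 49.0, 9.38 and 33.0 FPKM in D1 replicates 1 to 5 and 8.55, 6.16, 3.95, 5.90 and 9.04 FPKM in M4 replicates 1 to 5. D1 replicate 4 was just above the M4 range, and the other 4 D1 libraries were about 3 or more times as high as any M4 library. For MVD the log2 fold change was -2.06 (SE 0.37, adjusted p = 0.0389 from limma). HMGCS1, the enzyme that supplies HMG-CoA, had 727, 766, 1140.1, 220.2 and 703 FPKM at D1 and 199, 144, 219.9, 167 and 195 FPKM at M4. The groups touched without overlapping, again because of D1 replicate 4, and the adjusted p was 0.0755 by limma (log2 fold change -1.78, SE 0.37).

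Of 24 genes of the pathway tested, 1 was a DEG, 12 were lower at an unadjusted p under 0.05 (50.0%, against 6.21% of all genes) and 0 were higher, with a median log2 fold change of -0.79. Among them were MVD, HMGCS1, FDPS, SQLE, MVK, ACAT2, MSMO1, NSDHL, TM7SF2, DHCR7 and FDFT1, which span the pathway from acetyl-CoA to its last steps. The regulators did not share the shift, with log2 fold changes of 0.24 for SREBF2 (SE 0.30) and 0.07 for SCAP (SE 0.29).

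The summed FPKM of the pathway was 2029, 2266, 3004, 685 and 2206 at D1 and 761, 729, 995, 812 and 945 at M4. D1 replicate 4 was below every M4 library, and the other D1 libraries were above them all. Without D1 replicate 4 the pathway had 5 DEGs and 17 genes lower at an unadjusted p under 0.05, and without the 3 libraries low in myelin genes it had 2 DEGs and 17 lower genes. With library quality weights in limma, which give D1 replicate 4 a weight of 0.569 and the other D1 libraries 1.52 to 2.35, 6 genes of the pathway were DEGs. With the mapping rate as a covariate and the replicate block together, 0 were DEGs and 3 of 24 were lower at an unadjusted p under 0.05, with a median of -0.52. The pathway also had 0 DEGs with the 10 libraries alone, without a filter, without the trend in the variances and after either rescaling. It had 0 with the mapping rate as a covariate and no block. The same held without D1 replicate 1, 2, 3 or 5 or M4 replicate 1, 2, 3 or 4.

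**Figure D4:**
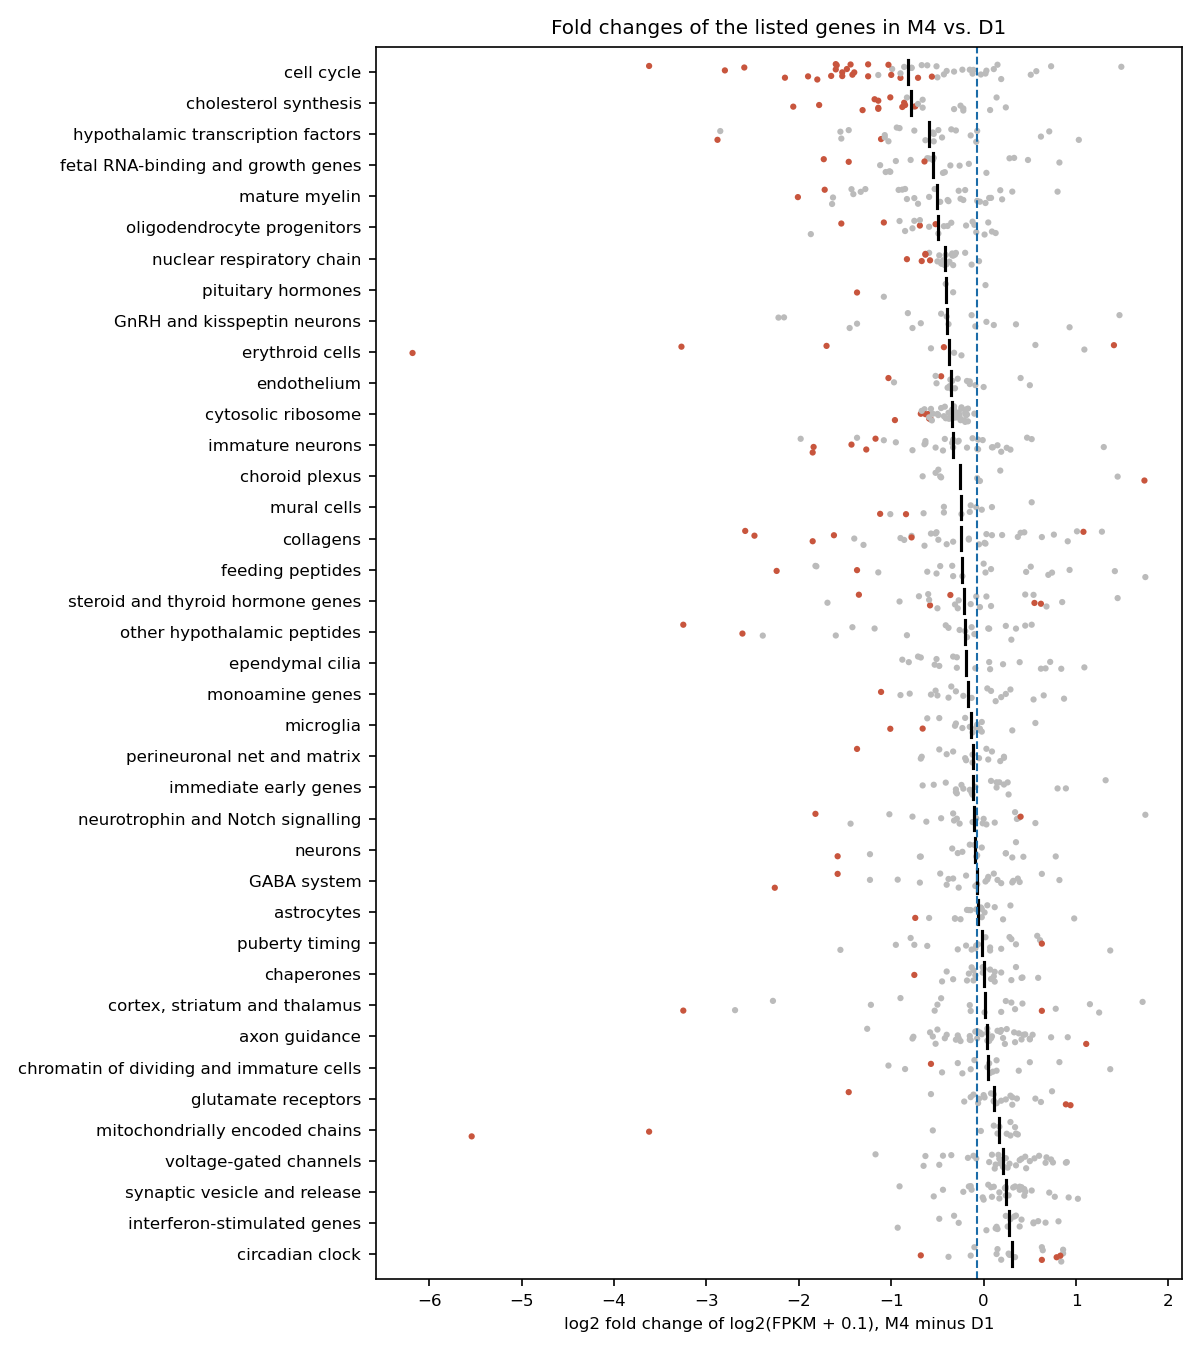
Log2 fold changes in M4 vs. D1 (limma) of the tested genes of the 39 lists, 1 point per gene, with members at an unadjusted p under 0.05 in red, the median of each list as a black bar and the median of all genes tested as a dashed line. The cell cycle and cholesterol synthesis lists have the lowest medians, -0.82 and -0.79, and the circadian clock list has the highest, 0.31.

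Genes of red blood cells included the largest fall among the DEGs, that of HBBC. ALAS2, the first enzyme of heme synthesis in erythroid cells, had 0.940, 2.75, 1.40, 0.548 and 0.381 FPKM in D1 replicates 1 to 5 and 0.0645, 0, 0, 0 and 0 FPKM in M4 replicates 1 to 5. All D1 libraries were above 0.3 FPKM, and 4 of 5 M4 libraries were listed at 0. The log2 fold change was -3.27 (SE 0.48, adjusted p = 0.00694 from limma). HBBC, the beta-C globin that goats make as juveniles, had 1.40, 129, 25.9, 46.5 and 59.1 FPKM at D1 and 0.276, 0.994, 0, 0.527 and 0.170 FPKM at M4. D1 replicate 1 was far below the other D1 libraries but above the M4 range, and the log2 fold change was -6.18 (SE 1.1, adjusted p = 0.0459 from limma).

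Other erythroid genes differed less or in the other direction. Of 10 tested, 2 were DEGs, 4 were lower at an unadjusted p under 0.05 (40%, against 6.21% of all genes) and 1 was higher (10%, against 2.5%), with a median of -0.37. The higher gene, EPB42 of the red cell membrane, had 0.307 to 1.44 FPKM at D1 and 0.660 to 3.26 at M4 (log2 fold change 1.41, SE 0.59, adjusted p = 0.513 from limma). The red cell membrane gene SLC4A1 and the erythroid factor GATA1 were near 0 at both ages and did not pass the filter. The globin genes of the list other than HBBC and HBM were not matched by symbol and are not analysed here. Without the 3 libraries low in myelin genes, 1 erythroid gene was a DEG, 3 were lower and 2 higher at an unadjusted p under 0.05. How much blood each sample held was not measured, and its part in these differences was not tested.

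Polyamine synthesis was represented among the DEGs by SRM, spermidine synthase. It had 14.5, 15.3, 17.5, 12.1 and 12.6 FPKM in D1 replicates 1 to 5 and 5.81, 7.56, 5.68, 5.07 and 8.51 FPKM in M4 replicates 1 to 5. The D1 values were tightly grouped, with a gap of over 3 FPKM to the highest M4 library. Its log2 fold change was -1.14 (SE 0.19, adjusted p = 0.0201 from limma).

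RASSF10, a member of the Ras association domain family, had 7.66, 6.43, 5.17, 4.83 and 5.62 FPKM at D1 and 1.21, 2.00, 2.52, 2.34 and 2.76 FPKM at M4. The ranges were again apart, with a log2 fold change of -1.45 (SE 0.26, adjusted p = 0.0389 from limma). LOC108637481 on chromosome 14 had 14.8, 18.1, 20.4, 15.1 and 20 FPKM at D1 and 4.84, 6.96, 4.04, 8.34 and 8.74 FPKM at M4. The groups did not overlap, and its log2 fold change was -1.46 (SE 0.21, adjusted p = 0.00694 from limma). Over the 24 alternatives, LOC108637481 and LOC106501755 were called in 22 each, LOC102178586 in 20, SRM in 12, RASSF10 in 11, MVD in 9 and HBBC in 5, and ALAS2 in 20 of 23.

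CMTM6, a membrane protein that stabilizes PD-L1, passed the adjusted p alone. It had 43.0, 46.2, 45.7, 28.4 and 36.6 FPKM at D1 and 18.4, 20, 18.5, 23.7 and 24.5 FPKM at M4, with a log2 fold change of -0.91 (SE 0.16, adjusted p = 0.0274 from limma). It brought the genes with an adjusted p under 0.05 to 10 (0.0596%).

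Genes just outside the threshold, named after their values were seen, included lower and higher ones. S100A8, a calcium-binding protein of neutrophils and monocytes, had 1.03 to 3.38 FPKM at D1 and 0 to 0.930 at M4 (log2 fold change -3.24, SE 0.62, adjusted p = 0.0546 from limma). IDH1, the cytosolic NADPH-producing isocitrate dehydrogenase, had 41.5 to 246 FPKM at D1 and 30.5 to 52.6 at M4 (-1.89, SE 0.39, adjusted p = 0.0755 from limma).

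On the higher side, GALNT18, which starts O-linked glycosylation, had 15.2, 35.9, 16, 21.2 and 16.1 FPKM at D1 and 44.8, 125, 64.7, 51.7 and 34.6 FPKM at M4. D1 replicate 2 overlapped the lowest M4 library, and the log2 fold change was 1.55 (SE 0.33, adjusted p = 0.0857 from limma). HECW2, a ubiquitin ligase, had 11.1 to 15.2 FPKM at D1 and 21.3 to 38.2 at M4, with groups that did not overlap (1.03, SE 0.22, adjusted p = 0.0885 from limma). With all 20 libraries at equal weight, 0 genes passed the threshold in this direction, while library quality weights gave 65 DEGs (0.388%), 54 lower and 11 higher, with all 9 DEGs among the lower ones.

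Among the 11 was DOK6, an adaptor of receptor tyrosine kinases in neurons, with 5.91, 7.73, 6.65, 9.90 and 6.77 FPKM at D1 and 14.7, 36.6, 17.6, 25 and 32.3 FPKM at M4. Every M4 library was above every D1 library, and the adjusted p was 0.00851 with weights and 0.118 without, both from limma. DDO, the oxidase that degrades D-aspartate, had 0.942, 1.91, 0.604, 0.788 and 4.44 FPKM at D1 and 1.34, 4.38, 21.2, 24.3 and 20 FPKM at M4. M4 replicates 3 to 5 were above 19 FPKM while M4 replicates 1 and 2, which were also low in myelin genes, lay in the D1 range, and the adjusted p was 0.0237 with weights and 0.253 without, both from limma. DOK6 and DDO were named after their values were seen.

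Myelin genes were abundant at both ages, and their levels varied more between libraries of an age than between ages. CLDN11, which seals the myelin sheath, had 669, 889, 1032, 78.9 and 912 FPKM in D1 replicates 1 to 5 and 22.6, 43.9, 309.6, 288 and 466 FPKM in M4 replicates 1 to 5. D1 replicate 4 was far below the other D1 libraries, as M4 replicates 1 and 2 were below the other M4 libraries, and the log2 fold change was -2.01 (SE 0.88, adjusted p = 0.533 from limma). CNP, an enzyme of oligodendrocyte membranes, had a log2 fold change of -1.72 (SE 0.79, adjusted p = 0.558 from limma) with the same 3 libraries low.

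Of 32 mature myelin genes tested, 2 were lower at an unadjusted p under 0.05 (6.25%, against 6.21% of all genes) and 0 were higher. Their median log2 fold change was -0.50. Without D1 replicate 4 the median was -1.04 with 11 genes lower, and without the 3 low libraries it was 0.01 with 0 lower and 1 higher. The myelin difference between the ages therefore followed the libraries kept.

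Of 23 genes of oligodendrocyte progenitors, 4 were lower (17.4%, against 6.21% of all genes) and 0 higher, with a median of -0.49. FYN, a kinase that acts early in myelination, had 79.7, 80.6, 72.3, 77.5 and 63.1 FPKM at D1 and 50.1, 44.1, 39.4, 46.8 and 50.7 FPKM at M4. These groups did not overlap and D1 replicate 4 was not low, with a log2 fold change of -0.69 (SE 0.16, adjusted p = 0.106 from limma). PDGFRA, the receptor that marks these progenitors, had 28.0 to 69.1 FPKM at D1 and 26.1 to 36.4 at M4 (log2 fold change -0.52, SE 0.19, adjusted p = 0.465 from limma).

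Genes of mature neurons and synapses gave no call. SNAP25, of the vesicle fusion machinery, had 388 to 770 FPKM at D1 and 369.9 to 1562 at M4, with M4 replicate 1 the highest. Over 33 genes of synaptic vesicles and release the median log2 fold change was 0.24, and over 36 voltage-gated channel genes it was 0.21, with 0 members of either list at an unadjusted p under 0.05. RIMS1 and RPH3A of vesicle release had log2 fold changes of 0.45 (SE 0.29) and 0.92 (SE 0.63). KCNQ3 and CACNA2D2 among the channels had 0.89 (SE 0.48) and -1.17 (SE 0.63). The 18 neuronal markers had a median of -0.09, with 1 lower (5.56%, against 6.21% of all genes).

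Transmitter genes were divided. Of 25 glutamate receptor genes, 2 were higher at an unadjusted p under 0.05 (8.0%, against 2.5% of all genes). A further 1 was lower (4.0%, against 6.21%), and the median was 0.11. GRM7, a presynaptic glutamate receptor, had 18.4 to 35.3 FPKM at D1 and 24.8 to 79.4 at M4 (log2 fold change 0.89, SE 0.28, adjusted p = 0.343 from limma). GRIN3B, an NMDA receptor subunit, had 0.0105 to 0.405 FPKM at D1 and at most 0.00959 at M4 (-1.46, SE 0.51, adjusted p = 0.432 from limma).

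Of 25 GABA genes, 2 were lower (8.0%, against 6.21% of all genes) and 0 higher, with a median of -0.07. SLC32A1, the vesicular GABA transporter, had 10.8, 5.43, 11.7, 10.2 and 5.17 FPKM at D1 and 0.954, 2.07, 2.02, 5.22 and 6.09 FPKM at M4. The log2 fold change was -1.58 (SE 0.68, adjusted p = 0.523 from limma), and M4 replicates 4 and 5 overlapped the D1 range. GABRQ, a receptor subunit, had -2.26 (SE 0.77, adjusted p = 0.393 from limma). Of 20 monoamine genes, 1 was lower (5.0%, against 6.21%), TPH2 of serotonin synthesis (-1.11, SE 0.52, adjusted p = 0.567 from limma). HTR7 had 0.54 (SE 0.47).

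Peptide genes of the hypothalamus varied by library more than by age, as the map of peptide genes shows. GNRH1 had 7.96, 0, 0.151, 0.992 and 0 FPKM in D1 replicates 1 to 5 and was listed at 0 in all 5 M4 libraries. D1 replicate 1 alone set most of the D1 level, and the log2 fold change of -2.22 (SE 1.3, adjusted p = 0.659 from limma) was not called. KISS1, which encodes kisspeptin, had 0.544, 0, 0.839, 0 and 0 FPKM at D1 and 0, 0, 0, 0 and 0.0735 FPKM at M4 and did not pass the filter. TAC3, the neurokinin B gene, had 6.04, 0.634, 1.15, 1.98 and 0 FPKM at D1 and 0.631, 0.155, 0, 0 and 0.249 FPKM at M4 (-2.16, SE 1.4, adjusted p = 0.703 from limma).

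The kisspeptin receptor KISS1R was near 0.1 FPKM at both ages (log2 fold change -0.13, SE 0.58). GNRHR had 0 to 0.103 FPKM at D1 and 0.0611 to 0.841 at M4 (1.47, SE 0.74, adjusted p = 0.589 from limma), and the neurokinin B receptor TACR3 had 0.385 to 5.08 and 0.0623 to 1.90 FPKM (-1.45, SE 0.79). Of 17 genes of GnRH and kisspeptin neurons tested, 0 had an unadjusted p under 0.05, so no difference in them was detectable over the spread of these libraries.

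**Figure D5:**
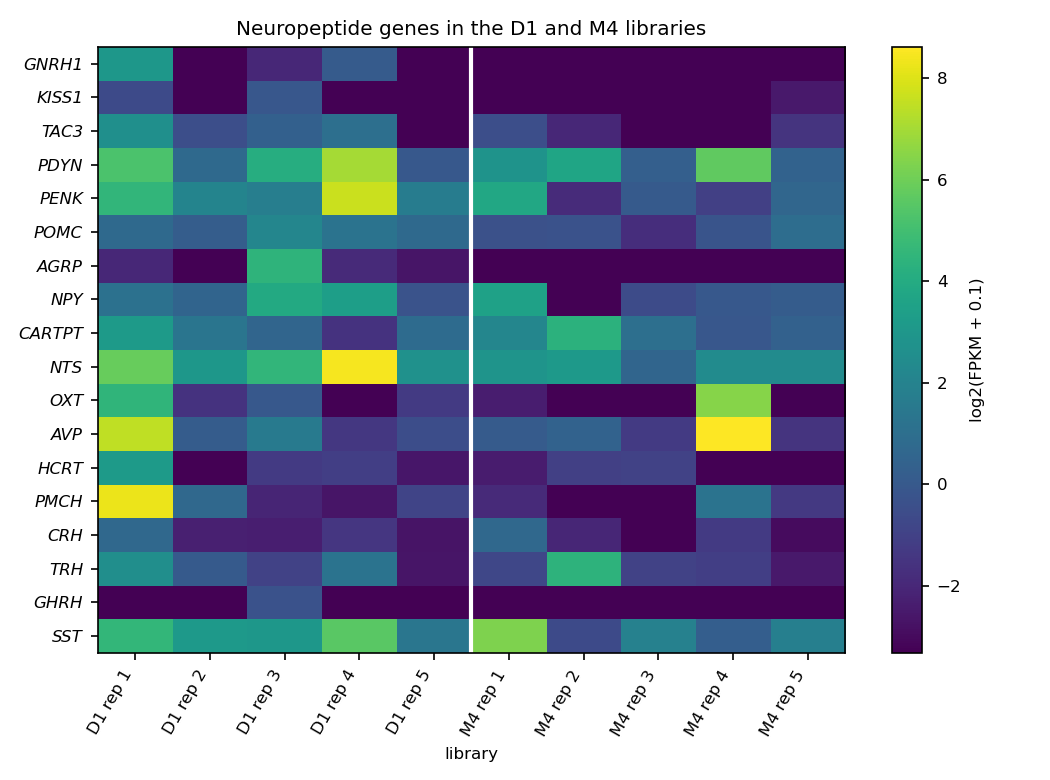
log2(FPKM + 0.1) of 18 neuropeptide genes (colour) in the 5 D1 and 5 M4 libraries, with a white line between the ages. High values sit in single libraries, such as PMCH in D1 replicate 1, NTS and PENK in D1 replicate 4, and AVP and OXT in M4 replicate 4.

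The hormones of the magnocellular neurons showed the same scatter. AVP, vasopressin, had 176, 1.01, 2.84, 0.286 and 0.600 FPKM at D1 and 0.973, 1.24, 0.302, 392 and 0.246 FPKM at M4. OXT, oxytocin, had 22.6, 0.231, 0.888, 0 and 0.311 FPKM at D1 and 0.0965, 0, 0, 86.3 and 0 FPKM at M4. D1 replicate 1 and M4 replicate 4 were the only libraries with high levels of both.

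PENK, the enkephalin precursor, had 23.3, 4.14, 3.36, 202 and 3.15 FPKM at D1 and 14.0, 0.176, 0.935, 0.373 and 1.44 FPKM at M4. NTS, neurotensin, had 56.8, 7.82, 23, 355 and 6.41 FPKM at D1 and 7.06, 8.74, 1.40, 5.30 and 5.34 FPKM at M4. D1 replicate 4, the library high in striatal genes, was the highest for both. Their log2 fold changes were -3.25 (SE 1.3, adjusted p = 0.483) and -2.61 (SE 1.1, adjusted p = 0.503 from limma). They were the 2 of 21 other peptide genes that were lower at an unadjusted p under 0.05 (9.52%, against 6.21% of all genes). None was higher. PDYN, the dynorphin precursor, had 0.877 to 128 FPKM at D1 and 1.13 to 52.7 at M4 (-0.82, SE 1.4).

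Among feeding peptides, AGRP and POMC were the 2 of 21 genes lower at an unadjusted p under 0.05 (9.52%, against 6.21% of all genes). AGRP, which stimulates feeding, had 0.151, 0, 21.7, 0.168 and 0.0603 FPKM at D1 and was listed at 0 in all 5 M4 libraries, so it rested on D1 replicate 3. POMC, the precursor of the satiety peptide alpha-MSH, had 1.6, 1.06, 4.38, 2.23 and 1.59 FPKM at D1 and 0.682, 0.707, 0.191, 0.755 and 1.80 FPKM at M4. M4 replicate 5 overlapped the D1 range, and the log2 fold change was -1.37 (SE 0.55, adjusted p = 0.497 from limma). NPY (0.732 to 14.9 FPKM at D1, 0 to 11.3 at M4) and CARTPT (0.234 to 8.91 and 0.837 to 20.1) overlapped widely.

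Genes tied to the timing of puberty gave few differences. MKRN3, whose loss causes early puberty in humans, had 1.85, 2.47, 1.68, 1.6 and 1.95 FPKM at D1 and 0.619, 0.754, 1.52, 1.11 and 1.57 FPKM at M4. Every M4 library was below every D1 library, by a narrow margin, and the adjusted p was 0.646 from limma (log2 fold change -0.79, SE 0.44). LIN28B, an RNA-binding protein of developmental timing, had 2.09 to 3.96 FPKM at D1 and 0.473 to 3.61 at M4 (-0.61, SE 0.52). Of 22 genes of the list, 1 was higher at an unadjusted p under 0.05 (4.55%, against 2.5% of all genes) and 0 were lower. It was KMT2A, a histone methyltransferase, with a log2 fold change of 0.63 (SE 0.23, adjusted p = 0.455 from limma), followed by POU2F1 with 0.58 (SE 0.28).

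Of 24 steroid and thyroid hormone genes, 3 were lower at an unadjusted p under 0.05 (12.5%, against 6.21% of all genes). A further 2 were higher (8.33%, against 2.5%). ESR1, the estrogen receptor, had 0.980, 0.171, 0.294, 0.148 and 0.353 FPKM at D1 and 0.0361, 0.253, 3.00, 3.18 and 0.403 FPKM at M4. M4 replicates 3 and 4 were the highest, and the log2 fold change was 0.85 (SE 0.80, adjusted p = 0.832 from limma). DIO3, which inactivates thyroid hormone, had 0.0386 to 0.270 FPKM at D1 and was listed at 0 in all 5 M4 libraries. THRA, a thyroid hormone receptor, had 16.9 to 26.5 FPKM at D1 and 14.9 to 17.5 at M4 (-0.36, SE 0.15, adjusted p = 0.505 from limma).

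Among 23 genes of fetal growth, 3 were lower at an unadjusted p under 0.05 and 0 were higher, where 6.21% of all genes were lower. The median of the list was -0.55, against -0.0667 for all genes. IGFBP3, a carrier of insulin-like growth factors, had 1.21 to 2.86 FPKM at D1 and 0.0918 to 1.03 at M4, without overlap (log2 fold change -1.73, SE 0.62, adjusted p = 0.435 from limma). CDKN1C, an inhibitor of the cell cycle, had -1.46 (SE 0.55, adjusted p = 0.467 from limma). IGF2 had 0.0984 to 3.17 FPKM at D1 and 0.187 to 0.643 at M4 (0.33, SE 0.73), and IGF2BP1 was at 0 in 9 of the 10 libraries and was not tested.

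In the hypothalamic factors, TBX3, which acts in arcuate neurons, had 0.446 to 0.949 FPKM at D1 and 0.0792 to 0.381 at M4, without overlap (log2 fold change -1.11, SE 0.37, adjusted p = 0.379 from limma). ISL1 had 2.44, 0.0415, 1.86, 2.21 and 0.0964 FPKM at D1 and 0 to 0.0461 FPKM at M4 (-2.88, SE 1.0, adjusted p = 0.438 from limma). D1 replicates 1, 3 and 4 carried it, while D1 replicate 2 lay within the M4 range. Of the 26 tested, 23 had a fold change below 0 (88.5%, against 56.3% of all genes), with a median of -0.59 against -0.0667. At an unadjusted p under 0.05, 2 were lower (7.69%, against 6.21% of all genes) and 0 higher.

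Among vascular and connective tissue genes, COL3A1 came closest to the threshold. COL3A1, a fibrillar collagen, had 28.5, 15.9, 24.1, 7.85 and 41.0 FPKM at D1 and 3.72, 1.64, 4.22, 3.30 and 4.69 FPKM at M4. The groups did not overlap, and the adjusted p was 0.0885 by limma (log2 fold change -2.58, SE 0.56). COL4A5 of basement membranes had -1.62 (SE 0.48, adjusted p = 0.296 from limma). Of 34 collagen genes, 5 were lower (14.7%, against 6.21% of all genes) and 1 higher (2.94%, against 2.5%) at an unadjusted p under 0.05, and 58.8% were below 0 against 56.3%.

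CLDN5, the tight junction protein of the blood-brain barrier, had 41.2, 35.1, 28.3, 20.4 and 28.0 FPKM at D1 and 9.26, 18.9, 12.8, 17.6 and 16.6 FPKM at M4. The groups did not overlap, and the log2 fold change was -1.03 (SE 0.38, adjusted p = 0.458 from limma). PECAM1, another endothelial gene, had 8.17 to 25 and 5.82 to 13.4 FPKM (-0.37, SE 0.31). At an unadjusted p under 0.05, 2 of 20 endothelial genes and 2 of 13 mural genes (LUM, -1.12, and KCNJ8, -0.84) were lower. In either list 0 were higher. Of all genes tested, 6.21% were lower and 2.5% higher at that threshold.

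Among glia, GFAP of astrocytes had 1840.4, 1658, 1425, 380.4 and 3500.4 FPKM at D1 and 296, 849, 1620.2, 2454 and 1984 FPKM at M4. The 3 libraries low in myelin genes were also the lowest in GFAP (log2 fold change -0.31, SE 0.61). APOE, the lipid carrier, had -0.74 (SE 0.31, adjusted p = 0.519 from limma) and AGT, angiotensinogen, 0.98 (SE 0.52). AIF1 of microglia overlapped between the ages (-0.31, SE 0.33). The complement genes C1QA and C1QB were the 2 of 18 microglial genes lower at an unadjusted p under 0.05 (11.1%, against 6.21% of all genes). Their log2 fold changes were -1.01 (SE 0.37) and -0.66 (SE 0.31).

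Genes of protein synthesis and respiration had small differences in a shared direction. All 45 cytosolic ribosome genes tested had a fold change below 0, as did 56.3% of all genes, with a median of -0.34. At an unadjusted p under 0.05, 6 were lower (13.3%, against 6.21% of all genes). RPS2 had 352, 612, 461, 756 and 511 FPKM at D1 and 182, 293, 225, 249.9 and 466 FPKM at M4 (log2 fold change -0.96, SE 0.30, adjusted p = 0.343 from limma). RPL18 had -0.68 (SE 0.21, adjusted p = 0.315 from limma). All 25 nuclear genes of the respiratory chain were also below 0, with a median of -0.42 and 5 lower (20%, against 6.21%), led by NDUFA8 (-0.83, SE 0.26) and SDHC (-0.67, SE 0.23).

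Over the alternatives the median ranged from -0.58 to -0.08 for ribosomal genes and from -0.51 to 0.01 for respiratory genes. Without the 3 libraries low in myelin genes, 2 ribosomal and 4 respiratory genes were lower at an unadjusted p under 0.05. With the mapping rate as a covariate 0 respiratory genes were lower and their median was -0.04, and after quantile normalization 2 ribosomal genes were lower with a median of -0.08. Without M4 replicate 5, 15 ribosomal genes were lower. M4 replicate 3 had the lowest sum of both lists. The 13 mitochondrially encoded genes had a median of 0.17, and COX3 and ND4, the 2 that were lower at an unadjusted p under 0.05, ranged from near 0 or 1 FPKM to very high FPKM among the D1 libraries, so their fold changes are not read.

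Clock genes had the highest median of the 39 lists, 0.31 over 18 genes. At an unadjusted p under 0.05, 3 were higher (16.7%, against 2.5% of all genes) and 1 was lower (5.56%, against 6.21%). The lower gene was CRY1, a repressor of the clock, with 8.65, 7.28, 7.94, 7.32 and 6.52 FPKM at D1 and 2.78, 4.26, 4.57, 5.79 and 6.78 FPKM at M4 (log2 fold change -0.68, SE 0.23, adjusted p = 0.379 from limma). M4 replicate 5 overlapped D1 replicate 5. TEF, an output factor of the clock, had 6.74, 6.50, 6.14, 10.6 and 5.58 FPKM at D1 and 18.7, 13.5, 11.7, 12.2 and 8.11 FPKM at M4 (0.83, SE 0.29, adjusted p = 0.435 from limma). The hour of sampling of each goat is not given in the sources used here, and its part in these values was not tested.

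The remaining lists gave few members at an unadjusted p under 0.05, where 6.21% of all genes were lower and 2.5% higher. In axon guidance 1 of 45 was higher (PLXNA2, log2 fold change 1.11, SE 0.50), and in the perineuronal net list 1 of 17 was lower (HAPLN1, -1.37, SE 0.45). In neurotrophin and Notch signalling DLL3 was lower (-1.82, SE 0.54) and NUMB higher (0.40, SE 0.17) of 22. Of 24 chaperone genes 1 was lower (CRELD2, -0.75, SE 0.25), and of 10 choroid plexus genes 1 was higher (SLC4A5, 1.74, SE 0.74). The lists of interferon-stimulated genes (20 tested), ependymal cilia (20) and immediate early genes (22) had 0, and the pituitary hormone genes CGA, LHB, FSHB, TSHB and GH1 had at most 0.426 FPKM in any D1 or M4 library.

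The other stages place the 9 DEGs along the same series, with the D1 libraries shared between the comparisons. ALAS2 had 0.118 ± 0.111 FPKM at M2 and 0.0119 ± 0.0176 at M6 (SD, n = 5), and its log2 fold change in M6 vs. D1 was -3.27 (adjusted p = 0.0213 from limma). MVD had 9.84 ± 3.83 FPKM at M2, 6.72 ± 2.08 at M4 and 8.34 ± 2.51 at M6, against 30.9 ± 14.4 at D1. SRM had 14.4 ± 2.18 FPKM at D1, against 7.99 ± 1.48 (M2), 6.53 ± 1.45 (M4) and 7.82 ± 1.08 (M6). For MVD and SRM the means of the 3 later stages lay close together and below that of D1. MVD in D1 replicate 4 (9.38 FPKM) lay within the ranges of M2 (5.03 to 15.4) and M6 (6.19 to 11.9). The SRM libraries of D1 (12.1 FPKM or more) stood apart from those of M2 (at most 9.43) and M6 (at most 8.69). Neither gene was called vs. D1 at M2 or M6 (adjusted p from limma 0.134 and 0.142 for MVD, 0.104 and 0.148 for SRM).

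LOC106501755 was at 17.5 ± 8.42 FPKM at D1, against 8.77 ± 2.31 (M2), 2.77 ± 1.14 (M4) and 6.16 ± 3.23 (M6), so M4 was the lowest stage by mean. HBBC went from 52.3 ± 48.0 FPKM at D1 to 11.6 ± 16.7 at M2, 0.393 ± 0.386 at M4 and 3.09 ± 3.40 at M6. UBE2C had 0.282 ± 0.182 FPKM at M2 and 0.255 ± 0.430 at M6, and RASSF10 had 3.50 ± 1.02 and 2.39 ± 0.653. The differences between M4 and these stages were not tested here.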

How the data were processed

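The authors trimmed the reads, aligned them to the goat genome ARS1.2 with HISAT2 2.0.5, assembled transcripts with StringTie 1.3.3b and deposited FPKM values per gene, with no counts. Symbols and positions came from the RefSeq table of the same assembly, which matched 20610 of 21071 IDs.

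Genes that reached 0.1 FPKM in 5 or more of 20 libraries were tested on log2(FPKM + 0.1), a scale that understates the change of low genes, with limma 3.58.1 in R 4.3.3. All 20 libraries entered a single fit with the 4 stages as groups and a trend in the variances. P values were adjusted by Benjamini-Hochberg over 16771 genes. A DEG had an adjusted p under 0.05 and a difference of 1 or more on the log2 scale, the study's thresholds for lncRNAs. In simulated data of 16771 genes, 29% of 200 genes shifted by 1 (log2) were called. The share was 77.5% by 2 and 96.5% by 4, with 0 calls without a shift. The simulation drew independent noise with 1 SD per gene for all libraries. The quality weights of the real libraries ranged from 0.343 to 3.18, so these rates may not carry over. Library measures were compared with exact permutation tests over 252 assignments (scipy 1.17.1, numpy 2.4.6, pandas 2.3.3, Python 3.11.15). Figures used matplotlib 3.10.9.

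The members, the 39 gene lists (945 of 1007 entries matched by symbol) and the tests were chosen with earlier results of these data known. Named genes were all DEGs, the DEGs of each list or otherwise its 2 genes with the smallest p, a set of genes of puberty, feeding and cell types, and genes said to be named after their values were seen. Lists were described by counts and medians, without a test. Alternatives were other pseudocounts, filters and scalings, the 10 libraries alone, no trend, weights for library quality, a block for the replicate number, a covariate for the study's mapping rate per library, and libraries left out. The lncRNA transcripts were not analysed here.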

Additional observations from a re-analysis of the deposited data

Results flagged for a closer look

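In 14 of 104 groups of 5 libraries, the highest or the lowest library lay farther from the rest than Dixon's 95% criterion allows (a gap of over 0.71 of the range), where chance gives about 5%. The groups were the 5 D1 or the 5 M4 libraries, for the DEGs, the summed FPKM of each list and 4 library measures, which overlap in their genes.

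D1 replicate 4 stood apart in 4 lists. It was high in markers of cortex, striatum and thalamus (976 FPKM), GnRH and kisspeptin neuron genes (642 FPKM) and immediate early genes (137 FPKM). It was low in mature myelin genes (1379.6 FPKM). GNRH1 (0.992 FPKM) and KISS1 (0 FPKM) made up little of its 642 FPKM. M4 replicate 1 was high in 3 lists, with 3305 FPKM of synaptic vesicle genes, 1108 FPKM of feeding peptide genes and 127 FPKM of immediate early genes. The remaining libraries stood apart in 1 kind of gene each. D1 replicate 2 had 17932 FPKM of mitochondrially encoded genes, counted both as a library measure and as a list. D1 replicate 5 had 437 FPKM of mural cell genes. M4 replicate 4 had 108 FPKM of GnRH and kisspeptin neuron genes, to which GNRH1 and KISS1, both listed at 0, gave nothing. M4 replicate 5 had 561 FPKM of interferon-stimulated genes.

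For ALAS2 (0.0645 FPKM) and UBE2C (0.119 FPKM), M4 replicate 1 was the only M4 library above 0.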

How the results depend on the processing

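The 9 DEGs, all lower at M4, became 0 with the 10 libraries of D1 and M4 alone, 5 (all lower) after quantile normalization or median-ratio scaling, 3 (all lower) with the mapping rate as a covariate and 65 with library quality weights (11 higher, 54 lower). Other pseudocounts, filters and no trend gave 7 or 8. Leaving out each D1 or M4 library in turn gave 3 to 33 DEGs, with 0 to 2 higher and 3 to 32 lower. The count was 33 without D1 replicate 4, 22 without M4 replicate 5, 3 without D1 replicate 3, 4 without D1 replicate 2 or M4 replicates 3 or 4, and 5 without D1 replicate 1. Without D1 replicate 5, 11 genes were called, 1 of them higher. All 9 kept their direction wherever they were tested, and only LOC106501755, LOC108637481, LOC102178586 and ALAS2 were called in at least 20 alternatives. The causes were not tested. The share of FPKM in the 10 highest genes, M4 minus D1, was -0.0208 percentage points and changed sign without D1 replicates 2, 3 or 5 (0.519, 0.561 and 0.312) and without M4 replicates 1, 3 or 4 (1.24, 0.375 and 0.21), with a range of -1.1 to 1.24 over libraries left out.

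The replicate numbers are shared by the ages but name different goats. With the replicate block limma called 7 genes, and with the block and the mapping rate 0. Deviations of same-numbered D1 and M4 libraries correlated between -0.246 and 0.281, and 1 of 5 D1 libraries was closest to its own number, so the numbers do not pair the libraries. A difference under 1 on the log2 scale could not be a DEG by definition. With 5 libraries per age and a median standard error of 0.358, differences of about 1 were also seldom callable.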
